A study of Mus musculus with 768 samples.

Results

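Cells with high Stmn2 were compared with cells with low Stmn2 inside 1 plate of mouse embryonic stem cell-derived embryoid body cells, taken 24 h after a motor neuron programming cassette was switched on. Members were the 24 h cells with at least 2000 genes above 0, which were 55 of the 96 cells of that plate and 55 of the 768 cells of the series. The groups were chosen by the Stmn2 level in TPM, with ties broken by cell number, as 18 Stmn2-high, 19 Stmn2-middle and 18 Stmn2-low cells. Because Stmn2 itself chose the groups, its own difference is a description and supports nothing. Every other gene was measured in the same cells that the split used, so the differences below are also descriptions, with no test: the plate is 1 sample and its cells are not replicates.

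All 768 cells carried the same cassette. The line is Ainv15 (iNgn2.Isl1.Lhx3.V5), an embryonic stem cell line in which doxycycline turns on Ngn2, Isl1 and Lhx3 together, with a V5 tag. Embryoid bodies were formed for 2 days, and 3 µg/ml doxycycline was added at 0 h and was present for 24 h in the cells compared here, high and low alike. Cells were dissociated, stained for viability with fluorescein diacetate and sorted singly into 96-well plates at each of 8 time points. They were made into SMART-Seq2 libraries, a full-length cDNA method without molecular identifiers, in 2 batches. The labels do not assign the batches to cells, so a batch difference between Stmn2-high and Stmn2-low cells could not be told apart. An average of 325000 single-end reads of 50 bp per cell was stated by the submitters. Levels are in TPM, a relative measure per transcript length that sums to a fixed total in each cell, so read depth per cell is not known from the values. No uninduced cell entered the comparison.

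Stmn2 (stathmin-2, also called SCG10) is a membrane-attached phosphoprotein that binds tubulin and promotes microtubule turnover in growth cones, and it is among the earlier genes that a differentiating neuron turns on. Ngn2 is a proneural basic helix-loop-helix factor, and Isl1 and Lhx3 are LIM-homeodomain factors that together direct spinal motor neuron identity. Pluripotent cells that become neurons leave the Oct4 and Nanog network, pass through a period of proneural factor expression, stop dividing and build neurites.

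Among the 18 Stmn2-high cells the Stmn2 level had a lowest value of 115.2 TPM, a median of 222 TPM and a highest value of 1034 TPM. The 19 Stmn2-middle cells had 20.63, 62.0 and 108.25 TPM in the same order, and the 18 Stmn2-low cells had 0, 1.645 and 20.57 TPM, with 7 of them at 0. The boundaries fell inside a continuous series, since the highest Stmn2-low cell had 20.57 TPM and the lowest Stmn2-middle cell 20.63 TPM, and the highest Stmn2-middle cell had 108.25 TPM and the lowest Stmn2-high cell 115.2 TPM. The number of genes above 0 was alike, with a median of 6713.5 (4110 to 8161) in Stmn2-high, 6999 (5768 to 8494) in Stmn2-middle and 6647.5 (3317 to 7699) in Stmn2-low cells. Ribosomal protein genes held a median of 22.5% of TPM in Stmn2-high and 23.5% in Stmn2-low cells, while the housekeeping genes Gapdh and Actb had medians of 9359 and 5366 TPM against 6448 and 3470 TPM. Whether that offset has a part in any result was not tested. The part of cells with few genes in the shares of cells above 0 was not tested either.

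**Figure D1:**
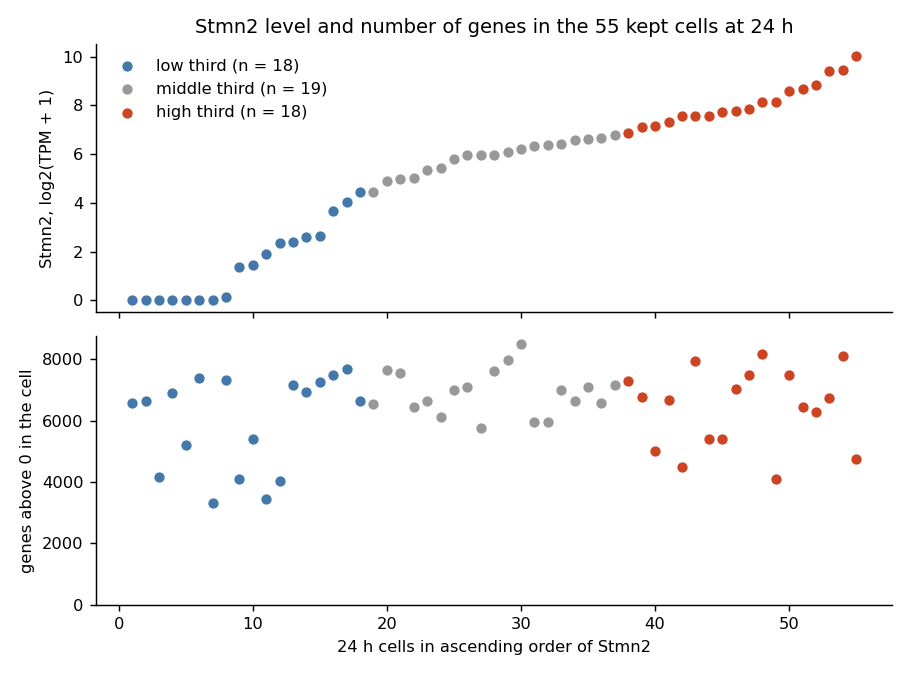
Stmn2 level, as log2(TPM + 1), and number of genes above 0 in the 55 kept cells at 24 h, in ascending order of Stmn2; each point is 1 cell, coloured by its group. Stmn2 runs without a break from 0 to 1034 TPM, and the number of genes does not separate the groups.

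Differences are given as a log2 fold change, the log2 ratio of mean TPM + 1 in Stmn2-high cells to mean TPM + 1 in Stmn2-low cells. This scale compresses differences between low levels. Genes passed a filter when their mean reached 10 TPM in the higher group with at least 25% of that group's cells above 0. A gene could thus pass through the group where it was high, so counts and medians over the passing members of a list are descriptions. Of 6564 passing genes, 983 (15.0%) were at least 2-fold higher and 622 (9.48%) at least 2-fold lower in Stmn2-high cells, and the median over all passing genes was 0.09. In none of the 983 and none of the 622 genes did the 2 groups separate without overlap. Of the genes higher in Stmn2-high cells, 706 (71.8%) had a Stmn2-middle mean between the other 2 groups, as had 439 (70.6%) of the genes that were lower. These genes were chosen by the gap between those 2 groups, which by itself places many middle means between them. The shares therefore do not show a graded change along Stmn2.

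Genes of the neuronal cytoskeleton and growth cone were higher across the list. Of 31 list genes, 22 passed, and all 22 were above 0 on the log2 scale, as were 54.9% of all passing genes. Of the 22, 14 were at least 2-fold higher and 0 at least 2-fold lower, beside 15.0% and 9.48% of all passing genes. The median log2 fold change was 1.34 against 0.09 over all passing genes. The summed level of the list had a median of 5904 TPM per cell in Stmn2-high, 2832 TPM in Stmn2-middle and 2730 TPM in Stmn2-low cells. A Stmn2-high cell had a median of 19.5 of the 31 genes above 0, and a Stmn2-low cell 17.

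Tubb3 encodes the neuron-specific beta-tubulin. Its lowest, median and highest levels were 3.23, 115 and 2760 TPM in Stmn2-high cells, 0, 47.3 and 752 TPM in Stmn2-middle cells and 0, 4.715 and 441 TPM in Stmn2-low cells. All 18 Stmn2-high cells were above 0 (95% exact interval 81.5 to 100%), against 12 of 18 Stmn2-low cells (66.7%, 41.0 to 86.7%). The groups overlapped, with 17 of 18 Stmn2-high cells above the Stmn2-low median and 4 above the highest Stmn2-low cell. The log2 fold change was 2.84 from means of 486 ± 796 and 67.3 ± 123 TPM (SD over cells, 18 cells each). Rtn1, a reticulon of the endoplasmic reticulum of neurons, had the same pattern of cells above 0, at 18, 13 and 12 cells from high to low. Its median was 223 TPM in Stmn2-high and 26.7 TPM in Stmn2-low cells, and its log2 fold change was 2.91.

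The neurofilament genes Nefm and Nefl, subunits of neuronal intermediate filaments, had larger fold changes that rested on fewer cells. Nefm was above 0 in 9 of 18 Stmn2-high cells, 5 of 19 Stmn2-middle and 3 of 18 Stmn2-low cells. Its highest values were 639, 305 and 14.3 TPM, and its log2 fold change was 5.41, the highest of the genes named by rank. It was 2.50 as a difference of mean log2(TPM + 1) and 0.66 with medians over cells. Nefl was above 0 in 9 and 4 cells, with a log2 fold change of 3.14. Ina, alpha-internexin, another neuronal intermediate filament, was found in most Stmn2-high cells. It was above 0 in 17 of 18 of them, with a median of 56.0 TPM against 2.98 TPM, and in 11 Stmn2-low cells, and its log2 fold change was 2.31. The Ina value was 0.01 when cells of at least 1000 genes were kept and split again. The microtubule-associated protein gene Map1b, listed as Mtap1b, was above 0 in all 55 cells, and its log2 fold change was 1.24. Gap43, a growth cone membrane protein, had 1.34, and Dcx (doublecortin, a microtubule-associated protein of migrating neurons) had 3.58. For Dcx 1 cell at 277 TPM carried much of the mean, and without the highest cell of each group the value was 2.53.

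**Figure D2:**
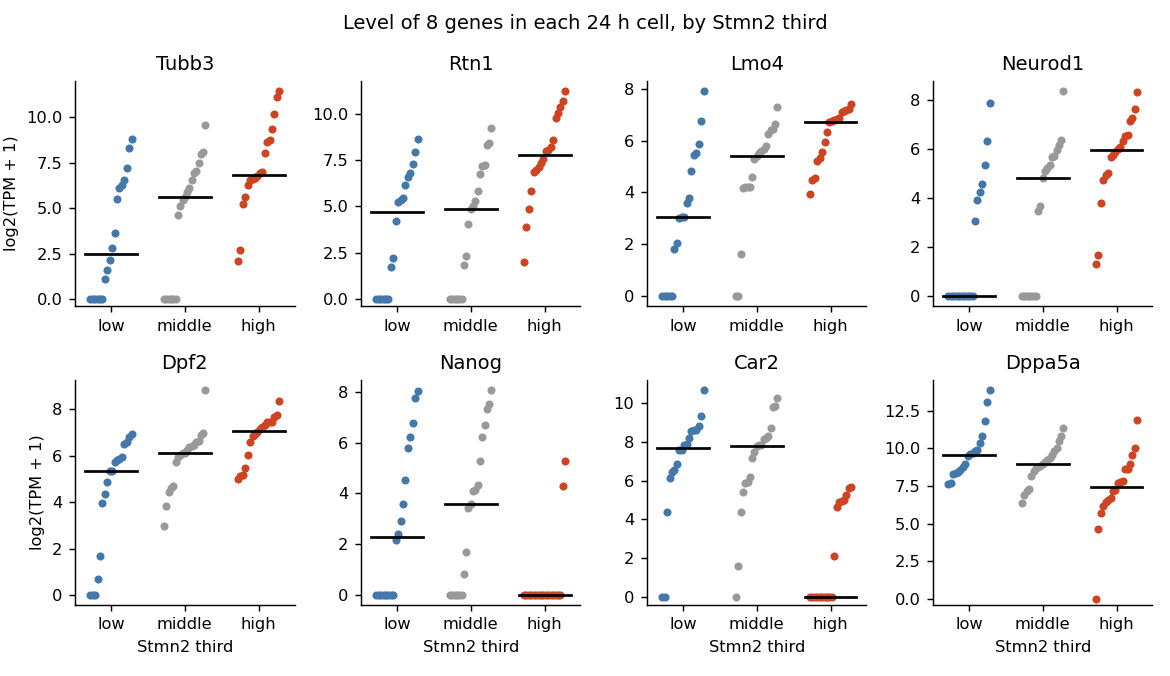
Levels of 8 genes as log2(TPM + 1) in each of the 55 cells at 24 h, by Stmn2 group (18 low, 19 middle, 18 high); each point is 1 cell and black lines are medians. Tubb3, Rtn1, Lmo4, Neurod1 and Dpf2 are above 0 in all 18 Stmn2-high cells, Nanog is above 0 in 2 of them, and the points of the 3 groups overlap in every panel.

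Other stathmin family genes share the tubulin-binding domain. Stmn1, the broadly expressed member found in dividing cells, was above 0 in all 55 cells with medians of 1226 TPM in Stmn2-high and 1039 TPM in Stmn2-low cells, a log2 fold change of 0.56. Stmn3 had 96.2 and 4.99 TPM, was above 0 in 16 and 9 cells, and had a log2 fold change of 1.56. Stmn4 was listed at 0 in all 55 cells.

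The programming factors are encoded by the cassette and by resident genes, and the values do not separate these sources. Lhx3 was above 0 in 16 of 18 Stmn2-high, 16 of 19 Stmn2-middle and 9 of 18 Stmn2-low cells, with medians of 32.3, 13.9 and 0.895 TPM and a log2 fold change of 1.41. Isl1 was above 0 in 15, 12 and 9 cells with a log2 fold change of 0.60. Neurog2 did not pass the filter. It was listed at 0 in all 18 Stmn2-high cells, where counting error alone would permit up to 16.7% of cells, and values above 0 occurred in 4 Stmn2-middle and 3 Stmn2-low cells, none above 8.98 TPM. Neurog2 is 1 of the 3 cassette genes, so values near 0 in doxycycline-treated cells go against the cassette label. Whether the table counts cassette reads under this gene was not tested, and the value is not read as the level of the factor.

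Downstream proneural factors were higher in Stmn2-high cells. Of 30 genes of the proneural cascade 14 passed, with a median of 0.97 against 0.09 over all passing genes. Of the 14, 7 were at least 2-fold higher and 1 at least 2-fold lower, beside 15.0% and 9.48% of all passing genes. Neurod1, a neuronal differentiation factor that acts after Ngn2, had lowest, median and highest levels of 1.52, 61.1 and 322 TPM in Stmn2-high cells and 0, 0 and 235 TPM in Stmn2-low cells. It was above 0 in 18 of 18 (81.5 to 100%), 12 of 19 and 7 of 18 cells (38.9%, 17.3 to 64.3%) from high to low. All 18 Stmn2-high cells exceeded the Stmn2-low median of 0, and the log2 fold change was 1.78. Nhlh1, a helix-loop-helix factor of newborn neurons, was above 0 in 15, 6 and 5 cells with a log2 fold change of 2.17. St18, a zinc finger factor of the Myt1 family, had a log2 fold change of 2.65. Gadd45g, a growth arrest gene that proneural factors induce, went the other way at -2.86, although 7 cells were above 0 in either group and the value turned to 2.10 in even-numbered cells. Ebf2, a helix-loop-helix factor of differentiating neurons, had 1.16, with a median of 66.9 TPM in Stmn2-high and 0 in Stmn2-low cells.

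Neuronal RNA-binding and splicing genes were also higher. Of 14 genes 8 passed, and all 8 were above 0 on the log2 scale, beside 54.9% of all passing genes. At least 2-fold higher were 4, beside 15.0% of all passing genes, and the list median was 1.03. Elavl4 (HuD, a neuronal mRNA-stabilising protein) had a log2 fold change of 3.08 with 8 and 4 cells above 0. Srrm4, which promotes neuronal microexon splicing, had medians of 86.3 TPM in Stmn2-high, 22.3 TPM in Stmn2-middle and 2.91 TPM in Stmn2-low cells and a log2 fold change of 1.49. Celf4 had 1.20 and Celf3 1.30, and the Celf3 value was -1.12 in odd-numbered cells.

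Synaptic and secretory genes had a median log2 fold change of 1.30 over the 11 of 30 that passed, with 8 at least 2-fold higher and 1 lower. Over all passing genes 15.0% were at least 2-fold higher and 9.48% lower. Chgb, a granin of secretory granules, had 5.89, but it was above 0 in 7 Stmn2-high cells and 1 Stmn2-low cell, and 1 cell reached 1373 TPM. Snap25, a SNARE protein of synaptic vesicle fusion, was above 0 in 10, 9 and 3 cells from high to low with a log2 fold change of 3.39, and Chga had 2.53. Trh, the precursor of thyrotropin-releasing hormone, was the exception at -3.14. Its mean was 413 TPM in Stmn2-middle cells, 66.7 TPM in Stmn2-low cells and 6.68 TPM in Stmn2-high cells, so the level was highest between the groups compared. Axon guidance and adhesion genes had a median of 0.79 over 10 of 33 matched genes. Of the 10, 4 were at least 2-fold higher and 0 lower, beside the same 15.0% and 9.48%. That list was led by the adhesion proteins Cntn2 (1.62) and Ncam1 (1.36), the Slit receptor Robo2 (1.53) and the guidance ligand Efna5 (1.09).

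Motor neuron and cholinergic genes passed only in part. Of 12 matched genes 4 passed, all 4 at least 2-fold higher with a median log2 fold change of 1.30, namely Lmo4 (1.47), Slit3 (1.54), Slc18a3 (1.14) and Lmo1 (1.04). Among all passing genes 15.0% were at least 2-fold higher. Lmo4, a LIM-only protein that binds the same partner as Lhx3 and Isl1, had lowest, median and highest levels of 14.3, 105 and 168 TPM in Stmn2-high cells and 0, 7.295 and 240 TPM in Stmn2-low cells. Every Stmn2-high cell thus exceeded the Stmn2-low median, although the single highest cell was a Stmn2-low cell. Slc18a3, the vesicular acetylcholine transporter, was above 0 in 6 and 5 cells. Mnx1 (Hb9), a motor neuron homeodomain factor, had a log2 fold change of 0.01 with 8 and 6 cells above 0, and Isl2 was above 0 in 1 Stmn2-high cell and 0 Stmn2-low cells. Mapt (tau) and Rbfox3 (NeuN), both markers of later neurons, were also scarce. Mapt was listed at 0 in all Stmn2-high and all Stmn2-low cells, and Rbfox3 was above 0 in 6 and 3 cells. Both were named after their values were seen and do not stand for later neuron genes in general. The neurofilament genes Nefm and Nefl were each above 0 in 9 of 18 Stmn2-high cells. Set against the label of early neurons, Stmn2-high cells had the cytoskeletal and proneural genes described above in more cells and at higher levels. Mnx1, Slc18a3 and Rbfox3 were above 0 in fewer than 9 of the 18. Of the sensory neuron, spinal interneuron and cranial or autonomic neuron lists, with 10, 15 and 7 genes, 0 genes passed, and the median summed level was at most 2.41 TPM in the Stmn2-high and 0 in the Stmn2-low cells.

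Pluripotency genes were lower in Stmn2-high cells. Of 17 core pluripotency genes 13 passed. At least 2-fold lower were 8 and at least 2-fold higher 0, beside 9.48% and 15.0% of all passing genes. Against 0.09 over all passing genes, the list had a median log2 fold change of -1.23. That median was -0.04 when cells above 0 for Stmn2 were set against the 7 cells at 0, and Pou5f1, Dppa2 and Tdgf1 then had 0.02, 0.39 and 0.27. The summed level had a median of 434 TPM per cell in Stmn2-high, 979 TPM in Stmn2-middle and 1326 TPM in Stmn2-low cells, with ranges that overlapped (228 to 4129 TPM in Stmn2-high and 305 to 16374 TPM in Stmn2-low cells).

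Nanog, a homeodomain factor of the pluripotent state, was above 0 in 2 of 18 Stmn2-high cells (11.1%, 1.38 to 34.7%), 13 of 19 Stmn2-middle cells (68.4%, 43.4 to 87.4%) and 10 of 18 Stmn2-low cells (55.6%, 30.8 to 78.5%). Its highest values were 38.0, 270 and 260 TPM in that order, and its log2 fold change was -3.39. Stmn2-middle cells thus resembled Stmn2-low cells for Nanog. Dppa2, a chromatin protein of pluripotent and germ cells, was above 0 in 4, 8 and 11 cells with a log2 fold change of -3.93, and Tdgf1, a Nodal co-receptor, in 1, 8 and 7 cells with -4.26. Dppa5a, an abundant RNA-binding protein of stem cells, was above 0 in 17 of 18 and 18 of 18 cells, with medians of 177 TPM in Stmn2-high and 759 TPM in Stmn2-low cells and a log2 fold change of -2.18. Stmn2-low cells with 3457 and 3317 genes above 0 held 15109 and 8813 TPM of it. In cells of the shared range of gene numbers the Dppa5a value was -0.76, the smallest in size of the alternatives. Utf1 had -2.86. Pou5f1 (Oct4) was still above 0 in 13 of 18 Stmn2-high cells and 15 of 18 Stmn2-low cells, with medians of 18.1 and 59.7 TPM and a log2 fold change of -1.23. Zfp42 (Rex1) had -1.65 with 10 cells above 0 in each group, and Fbxo15 of the naive list had -3.72, which became -1.0 without the highest cell of each group. Sox2 did not pass, with 2 Stmn2-high and 3 Stmn2-low cells above 0.

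Across the 55 cells the mean log2(TPM + 1) of the cytoskeleton list and that of the pluripotency list had a Spearman correlation of -0.49, as a description of cells that share 1 plate and differ in the number of genes above 0. The same value was -0.0016 over 56 cells at 18 h and -0.22 over 57 cells at 30 h. Stmn2 had a Spearman correlation of 0.52 with the cytoskeleton score, -0.32 with the pluripotency score and 0.13 with the number of genes above 0. The relation between the scores was thus negative at 24 h, smaller in size at 30 h and near 0 at 18 h. With the number of genes above 0, the pluripotency score had a Spearman correlation of -0.04 at 24 h, 0.48 at 18 h and 0.44 at 30 h, and the cytoskeleton score one of 0.40, 0.39 and 0.35 in the same order of times. The part of the number of genes in these relations was not tested.

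**Figure D3:**
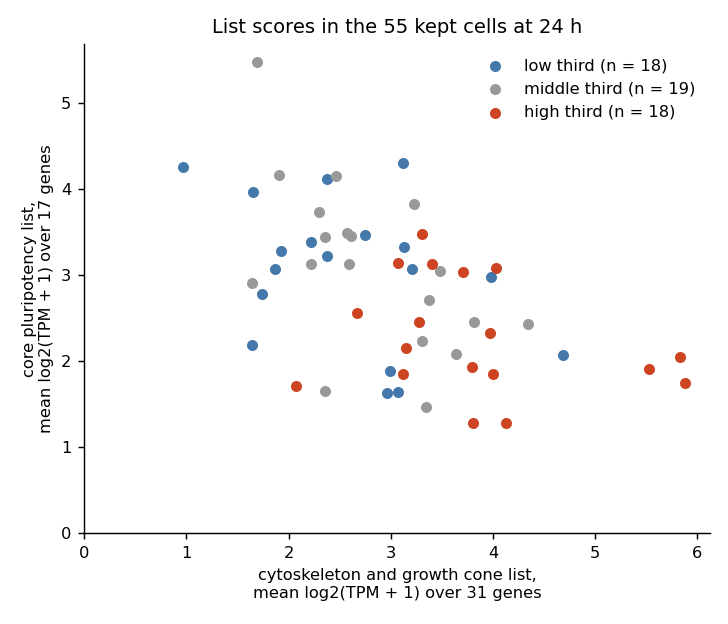
Mean log2(TPM + 1) of the cytoskeleton and growth cone list (31 genes, x axis) and of the core pluripotency list (17 genes, y axis) in each of the 55 cells at 24 h, coloured by Stmn2 group. Stmn2-high cells lie toward the lower right, with a Spearman correlation of -0.49 over all points.

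Upstream sequences are shown for 1 higher and 1 lower gene, so that the letters searched can be seen. E-boxes, the letters CANNTG that read the same on both strands and are bound by helix-loop-helix factors such as Ngn2 and Neurod1, are in capitals in the 250 bases before the first listed start (RefSeq, GRCm38.p6, plus strand), for Tubb3 at chr8:123411303-123411552 and for Nanog at chr6:122707239-122707488.
Tubb3: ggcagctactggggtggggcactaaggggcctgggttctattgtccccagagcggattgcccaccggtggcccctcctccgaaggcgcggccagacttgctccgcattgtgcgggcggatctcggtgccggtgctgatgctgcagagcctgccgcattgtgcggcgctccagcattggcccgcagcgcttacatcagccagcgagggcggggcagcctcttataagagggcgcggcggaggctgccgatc
Nanog: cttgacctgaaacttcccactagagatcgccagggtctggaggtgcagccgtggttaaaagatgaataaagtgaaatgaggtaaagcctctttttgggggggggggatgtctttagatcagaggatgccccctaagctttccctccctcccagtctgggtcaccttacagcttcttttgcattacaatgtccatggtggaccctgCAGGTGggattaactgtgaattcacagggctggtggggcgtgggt
The Tubb3 window holds 0 E-boxes and the Nanog window 1. An E-box was in 10 of the 17 matched promoters of the cytoskeleton list (58.8%) and in 6 of the 12 matched promoters of the core pluripotency list (50.0%), against 66.0% of all 27025 promoters of the same length. Of the 15 highest genes 5 of 7 matched promoters held one (71.4%), and of the 15 lowest 8 of 10 (80.0%). A match is a description of letters and not a bound site.

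Cell cycle genes were lower by smaller amounts. Of 36 genes of DNA replication and S phase 35 passed and 32 of them were below 0 on the log2 scale, where 54.9% of all passing genes were above 0. The median was -0.69, with 2 at least 2-fold lower, a smaller share than the 9.48% of all passing genes, and 0 at least 2-fold higher. With cells above 0 for Stmn2 set against the 7 cells at 0, the median was 0.08. Pcna, the replication clamp, was above 0 in all 55 cells, with lowest, median and highest levels of 11.5, 218 and 1932 TPM in Stmn2-high, 132, 783 and 1767 TPM in Stmn2-middle and 7.97, 565 and 1695 TPM in Stmn2-low cells. Its log2 fold change was -0.97. Uhrf1, which maintains DNA methylation at replication, had -1.20. Prim1, a primase subunit, was above 0 in 9 Stmn2-high and 15 Stmn2-low cells and had -0.98. Some Stmn2-high cells were therefore as high as any in these genes, while the middle of that group was lower.

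Mitosis genes depended on the summary. The median log2 fold change of the means was -0.09 over 29 of 30 genes. Of the 29, 2 were at least 2-fold lower and 0 at least 2-fold higher, beside 9.48% and 15.0% of all passing genes. The summed level had a median of 858 TPM per cell in Stmn2-high, 2668 TPM in Stmn2-middle and 2394 TPM in Stmn2-low cells, and a Stmn2-high cell had a median of 20 of the 30 genes above 0 against 24. Ccnb2 (cyclin B2) was above 0 in 11 and 16 cells with medians of 8.03 and 109 TPM and a log2 fold change of -1.18. In the difference of mean log2(TPM + 1), where very high single values count for less, the list median was -0.47. Among 16 growth arrest genes 8 passed with a median of 0.57. Cdkn1b (p27, an inhibitor of cyclin-dependent kinases) was above 0 in 16, 15 and 8 cells from high to low, with medians of 16.9, 6.63 and 0 TPM and a log2 fold change of 1.59.

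Lists of general metabolism gave no such offset. The median was 0.06 over 67 ribosomal protein genes, -0.11 over 35 nuclear oxidative phosphorylation genes, -0.19 over 25 proteasome genes and -0.14 over 14 glycolysis genes, with 0 genes past 2-fold in the first 3 lists and 1 each way in the last. Among all passing genes 15.0% were at least 2-fold higher and 9.48% lower.

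Among genes of other lineages few mesoderm and endoderm genes passed, while simple epithelium genes were present in every cell of both groups. Of 18 mesoderm and primitive streak genes 2 passed, both lower in Stmn2-high cells. They were T (Brachyury, -3.37, with 3 and 9 cells above 0) and the signalling ligand Wnt3 (-2.81, with 1 and 6 cells). The summed level of that list ranged from 0 to 87.5 TPM with a median of 3.235 TPM in Stmn2-high cells and from 0 to 590 TPM with a median of 58.4 TPM in Stmn2-low cells, and 10 and 7 of its genes were at 0 in every cell of the group. Whether streak-like cells have a part in the lower pluripotency and streak genes of Stmn2-high cells was not tested. Of 16 endoderm genes 2 passed, and Sox7, at -3.34, became -0.33 without the highest cell of each group. The simple epithelium list had summed levels with medians of 959 TPM in Stmn2-high and 644 TPM in Stmn2-low cells and no cell of either group below 170 TPM, and its adhesion genes Epcam and Cldn3 went opposite ways at -3.10 and 2.41.

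Signalling genes of early neural tissue were mixed. Id3, an inhibitor of helix-loop-helix factors, was above 0 in 2 Stmn2-high and 8 Stmn2-low cells with a log2 fold change of -3.71, and Hes1, a Notch-responsive repressor, had -1.69, while the median over the 5 of 14 Notch and Id genes that passed was 0.01. Crabp1, a carrier of retinoic acid, was above 0 in 13 and 8 cells, with medians of 210 and 0 TPM and a log2 fold change of 3.34. 1 Stmn2-high cell reached 8033 TPM, and the value was 2.61 without the highest cell of each group. Hoxb1, a retinoic acid-responsive homeobox gene, had 4.36 from 5 Stmn2-high cells and 1 Stmn2-low cell, and Crabp2 had 0.13, or 1.35 without the highest cell. Vim (vimentin), an intermediate filament of progenitors, had 1.36, and Pax6, a neural progenitor factor, had -0.54, which turned to 0.48 as a difference of mean log2(TPM + 1). Among genes of the primed state Otx2, a homeodomain factor, had 1.88 and Dnmt3b, a DNA methyltransferase, -1.20.

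Counts for chromatin genes were small. Of 9 genes of the list around REST, the repressor of neuronal genes, and the splicing repressor Ptbp1, 6 passed, with 3 at least 2-fold higher, 0 lower and a median of 0.86. Over all passing genes the shares were 15.0% and 9.48%. Of 6 progenitor subunits of BAF remodelling complexes 5 passed, with 1 at least 2-fold higher, 0 at least 2-fold lower, 2 below 0 on the log2 scale and a median of 0.62, beside 15.0% of all passing genes at least 2-fold higher. That one was Dpf2, with lowest, median and highest levels of 31.3, 135 and 327 TPM in Stmn2-high cells, 6.86, 69.0 and 454 TPM in Stmn2-middle cells and 0, 40.0 and 123 TPM in Stmn2-low cells. The log2 fold change was 1.58. Hdac2, a histone deacetylase that works with REST, was above 0 in 16, 12 and 8 cells and had 1.77. Rcor1, a REST corepressor, had 3.24 from 6 and 4 cells above 0.

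Ranked over all genes with at least 50% of the higher group above 0, the 15 highest log2 fold changes ran from 2.92 to 5.41. Nefm was followed by Npr2, a natriuretic peptide receptor (4.77), Cbr4, a mitochondrial reductase (3.66), Prune (3.44), Snap25 (3.39) and Crabp1 (3.34). The others were Rdh12, Nefl, Edil3, App (the amyloid precursor protein, 3.10), Zkscan3, Zfp251, Neurl1a, Zfyve26 and a gene listed as 10-Sep. Nefm, Nefl, Snap25 and Crabp1 belonged to a described list, and the remaining 11 did not. Of the 15 lowest, Slc43a3, a transporter, was listed at 0 in all 18 Stmn2-high cells and had values above 0 in 10 Stmn2-low cells. The other 14 ran from -2.65 for Spry2, an inhibitor of growth factor signalling, to -4.31 for Car2. Car2 (carbonic anhydrase 2) separated most cells of the 2 groups. It had medians of 0 TPM in Stmn2-high, 217 TPM in Stmn2-middle and 206 TPM in Stmn2-low cells, and 15 of 18 Stmn2-low cells exceeded the highest Stmn2-high cell, which had 50.2 TPM. Between them were Dppa2, Plec (plectin), Ncoa7, Nanog, T, Exosc3, Nsmce4a, Ifitm3, Phlda2, Utf1, Ranbp17 and Znf451.

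The same split was then made in cells the 24 h rule did not use. At 18 h it gave 18 Stmn2-high cells of at least 47.7 TPM and 18 Stmn2-low cells of at most 7.78 TPM, and at 30 h 19 cells of at least 126.9 TPM and 19 of at most 30.9 TPM. At 18 h 695 of 6215 passing genes (11.2%) were at least 2-fold higher and 557 (8.96%) at least 2-fold lower, and at 30 h 964 of 6597 (14.6%) and 532 (8.06%). Of 635 genes that were at least 2-fold higher at 24 h and passed at 18 h, 111 (17.5%) were at least 2-fold higher there too, against 9.35% of all genes passing at both times. At 30 h the share was 29.0% of 744, against 12.3%. For the lower genes the shares were 17.1% against 6.92% at 18 h and 21.0% against 6.89% at 30 h. At 6 h, with little Stmn2, both shares were also larger, with 12.4% against 7.53% for the higher genes. The sign was kept there in 50.0% of the higher genes, against 55.8% of all genes, and in 46.5% of the lower, against 44.2%. A larger 2-fold share thus does not by itself show that the Stmn2 difference recurred. At 18 h the sign was kept in 60.6% against 56.3% and in 52.7% against 43.7%. At 30 h the values were 74.5% against 58.2% and 57.0% against 41.8%. The differences between these shares were not tested.

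Neuronal lists had larger values at 30 h than at 18 h, beside medians over all passing genes of 0.10 at 18 h and 0.15 at 30 h. The cytoskeleton list had medians of 0.53 at 18 h and 1.08 at 30 h, the RNA-binding list 0.78 and 1.62, the proneural list 0.26 and 1.33, the synaptic list 0.08, under the median over all genes, and 1.55, and the axon guidance list 0.58 and 1.38. Core pluripotency had -0.49 and -0.40, smaller in size than the -1.23 of 24 h, and DNA replication had 0.32 at 18 h and -0.31 at 30 h, so its lower level in Stmn2-high cells was not seen at 18 h. Whether these lists differ between times was not tested.

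**Figure D4:**
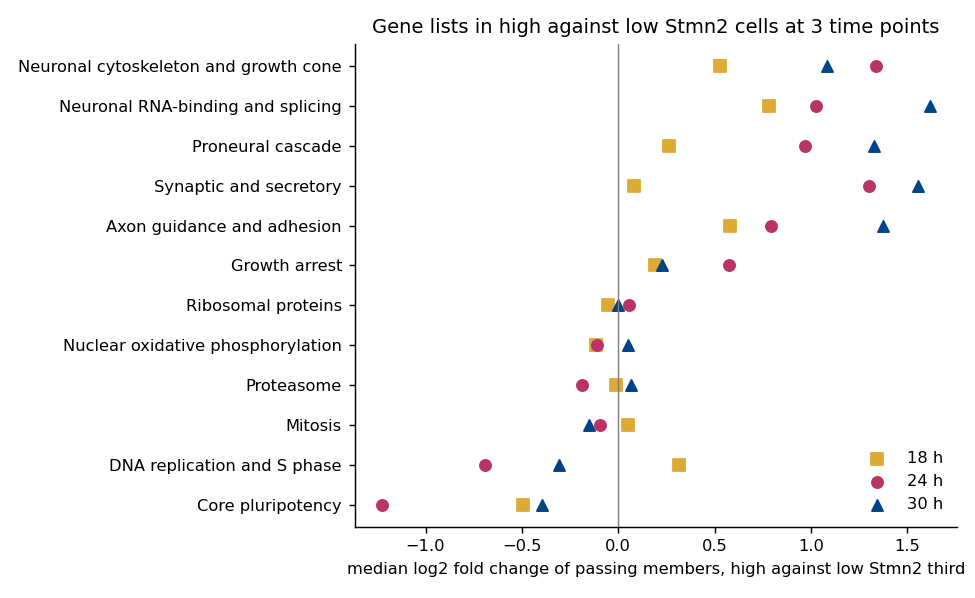
Median log2 fold change of the passing members of 12 gene lists, Stmn2-high against Stmn2-low cells (x axis), at 18 h (squares), 24 h (circles) and 30 h (triangles). Over all passing genes the median is 0.10, 0.09 and 0.15 in order of time. The 5 neuronal lists lie above it except the synaptic list at 18 h (0.08), and the DNA replication list lies at 0.32, -0.69 and -0.31.

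Among single genes, Tubb3 had 0.54 at 18 h and 3.03 at 30 h, Rtn1 0.68 and 2.62, Neurod1 0.20 and 2.11, Stmn3 0.32 and 2.69, Cdkn1b 0.26 and 1.75 and Nanog -0.75 and -2.38. Of the 15 highest genes at 24 h, 9 had the same sign at 18 h, 12 at 30 h and 8 at both, and of the 15 lowest 10, 10 and 6. Of all genes passing at 24 h and at the other time, 56.3% were above 0 at 18 h and 58.2% at 30 h. Below 0 were 43.7% and 41.8%. Thus a high rank at 24 h was often not kept, and Cbr4, Prune and Znf451 were among those with the opposite sign at 30 h, as was T, which was below the filter there. Leaving out unnamed gene models, 31 genes were at least 2-fold higher and 23 at least 2-fold lower at 18 h, 24 h and 30 h alike. At the single times 11.2%, 15.0% and 14.6% of passing genes were that much higher, and 8.96%, 9.48% and 8.06% lower. Some genes would be shared without any relation between times, and that number was not computed. The higher ones included Snap25 (1.34, 3.39 and 3.09 in order of time), App (1.61, 3.10 and 3.01), Elavl4 (1.30, 3.08 and 4.85), Robo2, Srrm4, Vim, Ebf2, the Notch ligand Dll1 (1.29, 1.49 and 1.71) and the Lhx3 and Isl1 cofactor Ldb1 (1.73, 1.14 and 1.19). The lower ones included Id3 (-4.11, -3.71 and -2.69), Dppa5a (-1.47, -2.18 and -2.73), Trh, Phlda2, the germ cell gene Dazl and Chac1, which acts in glutathione breakdown.

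**Figure D5:**
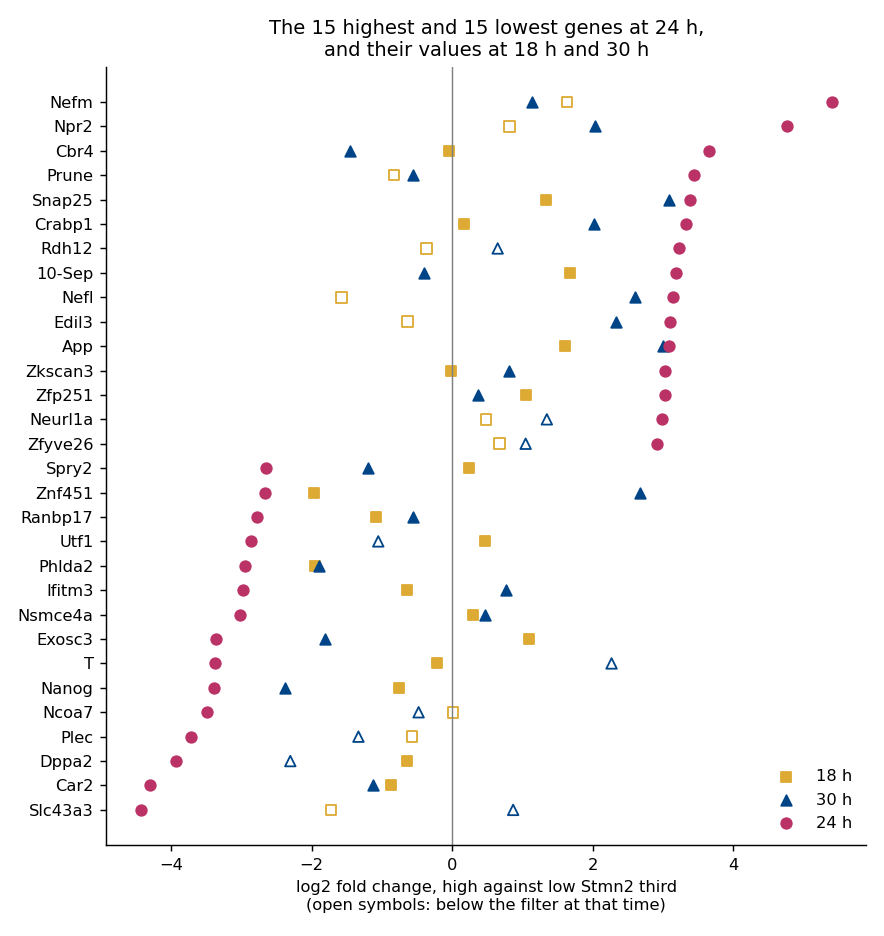
Log2 fold change, Stmn2-high against Stmn2-low cells (x axis), of the 15 highest and 15 lowest genes at 24 h (circles), with their values at 18 h (squares) and 30 h (triangles); open symbols were below the filter at that time. At 24 h all points lie beyond 2.6 in size because they were ranked on that value, the Slc43a3 circle rests on the pseudocount, and at 30 h 12 of the 15 higher and 10 of the 15 lower genes keep their sign. Of all genes passing at both 24 h and 30 h, 58.2% are above 0 and 41.8% below 0 at 30 h.

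Splits at other times had too little Stmn2 or too few genes to be read alike. At 6 h, when 29 of 53 kept cells had Stmn2 at 0 and the lowest Stmn2-high cell 4.23 TPM, 504 of 5872 genes (8.58%) were at least 2-fold higher and 537 (9.15%) lower, and the cytoskeleton list had a median of -0.80. At 12 h 47 of 52 kept cells had Stmn2 at 0, so no comparison was made. At 36 h the 44 kept cells had at most 3675 genes above 0 and 21 had Stmn2 at 0, and 1062 of 3847 genes (27.6%) were at least 2-fold higher and 1126 (29.3%) lower.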

How the data were processed

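The authors deposited 1 table of TPM for 27723 genes and 768 single cells, with 96 cells at each of 8 time points and a column sum of 1000000 TPM in each. The values are estimates per transcript length, with column names that carry the word rsem. bcl2fastq, Picard and the build mm10 are named per the submitters' processing notes, and for the aligner and the annotation nothing is given in the sources used here. Only cells in which 2000 genes or more exceeded 0 were used, ordered by Stmn2 and split, and 41 of the 96 cells at 24 h were left out. Doublets were not examined. Means over cells, log2 ratios with a pseudocount of 1 TPM and shares with exact Clopper-Pearson intervals at 95% were computed in Python 3.11.15 with pandas 2.3.3, numpy 2.4.6 and scipy 1.17.1, and the comparison step was tested on simulated data. Intervals and limits for 0 cells (3 cells over the number of cells) cover counting error only. No test, p-value or standard error was computed, because each time point is 1 sample.

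The members, lists and alternatives were chosen with earlier results of these data known. Genes named were the 15 highest and 15 lowest log2 fold changes among named genes above 0 in at least 50% of the higher group, from each described list up to 4 passing genes by absolute change, the 3 factor genes and the other stathmins. Tubb3, Ina, Gap43, Map1b, Dppa5a, Pou5f1, Zfp42, Hdac2, Pax6, Mnx1, Isl2, Mapt, Rbfox3 and the genes shared by 3 time points were named after their values were seen. A result that the naming rule would give is not reported here. Of 708 list entries 682 matched a symbol in the table, 12 a synonym in RefSeq (GRCm38.p6) and 14 none. Symbols are in capitals in the table and some were turned into dates. Reads that near-identical genes share could not be told apart, and TPM has no strand information here. 16 alternative settings were applied.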

Additional observations from a re-analysis of the deposited data

Results flagged for a closer look

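Some values had opposite signs in the Stmn2 split at 24 h and in the same split at another time, with every such difference at least 1 on the log2 scale at both times. None of these differences was tested. The neuronal RNA-binding and splicing list had 1.03 (median log2 fold change) at 24 h and -1.05 at 6 h, over 8 and 4 passing genes. The retinoic acid list had 1.87 at 24 h and -2.21 at 6 h, over 4 passing genes each. At 6 h Stmn2 was at 0 in 29 of 53 kept cells. Cbr4 had 3.66 at 24 h and -1.45 at 30 h. Exosc3 had -3.36 at 24 h and 1.09 at 18 h. Znf451 had -2.67 at 24 h and 2.67 at 30 h.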

How the results depend on the processing

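Counts of genes past 2-fold depended on the settings more than the lists did. The 983 higher genes became 351 with a pseudocount of 10 TPM, 553 with the top 27 cells against the bottom 27, 1545 with cells of at least 1000 genes, 1608 with medians over cells, 1653 in odd-numbered cells and 2786 with no filter. The 622 lower genes became 272 with a pseudocount of 10 TPM, 342 with those 27 against 27 cells, 992 in odd-numbered and 1059 in even-numbered cells and 1978 with no filter. The 5 neuronal lists kept their sign under all 16 alternatives but not their size. The cytoskeleton median ran from 0.83 to 1.64 and the RNA-binding median from 0.57, in cells of the shared range of gene numbers, to 1.84. The proneural median ran from 0.39, with cells of at least 1000 genes, to 1.90 in even-numbered cells. The synaptic median ran from 0.72 with no filter to 2.64 with medians over cells. The axon guidance median was 0.42 in cells of the shared range of gene numbers and for 27 against 27 cells, 1.36 in even-numbered cells and 1.86 with medians over cells. With cells above 0 for Stmn2 set against the 7 cells at 0, core pluripotency had a median of -0.04 and DNA replication 0.08. In that comparison several genes that were lower in Stmn2-high cells turned to values above 0: Car2 0.02, Pou5f1 0.02, Uhrf1 0.13, T 0.15, Chac1 0.17, Tdgf1 0.27, Dppa2 0.39, Exosc3 0.41, Epcam 0.51, Hes1 0.56, Phlda2 0.70, Id3 1.03, Sox7 1.94, Fbxo15 2.34, Gadd45g 2.83 and Trh 3.31, while Slit3 turned to -0.09. Gadd45g was 2.10 in even-numbered cells and Celf3 -1.12 in odd-numbered cells. With cells of at least 1000 genes, split again, the retinoic acid list had -0.37, Ebf1 -2.48, Efna5 -0.75, Cdkn1b -0.61 and Ccna2 0.14. Under that setting Ina fell to 0.01, Lhx3 to 0.30 and Snap25 to 0.40 without a change of sign, while Nefl rose to 5.13 and Nhlh1 to 5.22. The cause was not tested. With 18 cells a group and many genes above 0 in few cells, single cells set some means, and read depth per cell is not known. No paired analysis was possible because the result comes from no test.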
